A study of Mus musculus with 8 samples.

Results

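The genes described here encode the subunits of heterotrimeric G proteins and the RGS proteins that switch them off. They were taken from the deposited expression table by gene symbol: alpha subunits (Gna followed by a class letter or number), beta subunits (Gnb1 to Gnb5), gamma subunits (Gng genes) and genes named Rgs followed by a number. The rule found 54 of the 40800 gene identifiers in the table, namely 16 alpha, 5 beta and 12 gamma subunits and 21 RGS genes. The RNA came from dorsal root ganglia, where the cell bodies of sensory neurons and their glia lie next to the spinal cord, of mice aged 6 months. One group was wild type (C57BL/6; samples 1, 3, 4 and 8) and the other carried a gene trap in both copies of Tmem184b on the same background (samples 1, 2, 3 and 4). Each group came from 4 mice, the trap is carried in every cell type, and the labels give neither sex nor litter. The column headers also hold a number of unstated meaning, lower for every mutant than for every wild type. Anything tied to these numbers cannot be told apart from genotype.

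A G protein is a switch made of an alpha subunit, which binds GDP or GTP, and a beta-gamma pair. An activated receptor loads the alpha subunit with GTP, alpha and beta-gamma part and act on enzymes and ion channels, and an RGS protein speeds up GTP hydrolysis so that the signal ends. In sensory neurons this cycle carries the signals of itch, inflammatory and opioid receptors to adenylyl cyclases, phospholipase C, calcium channels and potassium channels.

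Values are moderated log2 CPM: reads were divided by the library total, a small constant was added to keep 0 finite, and the log2 was taken. The libraries held between 6183618 and 7983821 reads, and a single read stood for 0.125 to 0.162 CPM. The trapped gene itself was at 7.36 to 7.51 log2 CPM in the wild types and at 2.47 to 3.10 in the mutants, which matches the labels. All 11 markers of sensory neurons on the list used to check the tissue were expressed above the test filter.

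In the mutant ganglia more G protein and RGS genes fell than rose. A member was tested when its log2 CPM exceeded 0 in at least 4 of the 8 samples, which 42 of the 54 did, and it was called when its limma p, adjusted by Benjamini-Hochberg over all 15030 genes tested, was under 0.05. Of those 42, 11 fell (Gnal, Gnao1, Gna14, Gnaq, Gnb1, Gnb4, Gng2, Rgs3, Rgs4, Rgs7 and Rgs8) and 2 rose (Rgs6 and Rgs11), 31.0% in all. Over all genes tested 5.46% were called, 2.81% higher and 2.64% lower. An unadjusted p under 0.05 was reached by 19 of the 42 members and by 21.3% of all genes. The median difference, mutant minus wild type, was -0.04 log2 units over the tested members and 0.07 over all genes. Of the 42 members 26 lay below 0, beside 35.6% of all genes. Groups did not overlap, higher in the mutant, for 2 members, against 7.5% of all genes, and did not overlap, lower in the mutant, for 14 members, against 4.92% of all genes.

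The split of all genes moved with the scaling, and that of the members moved less. As deposited, 423 genes were called higher and 397 lower. With samples centred on their median gene, 204 were higher and 706 lower, while the members stood at 2 higher and 14 lower. Leaving out the mean-variance trend of limma reduced the members' calls to 0 higher and 3 lower (Gnal, Gng2 and Rgs7), and the calls over all genes to 0.945%.

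**Figure D1:**
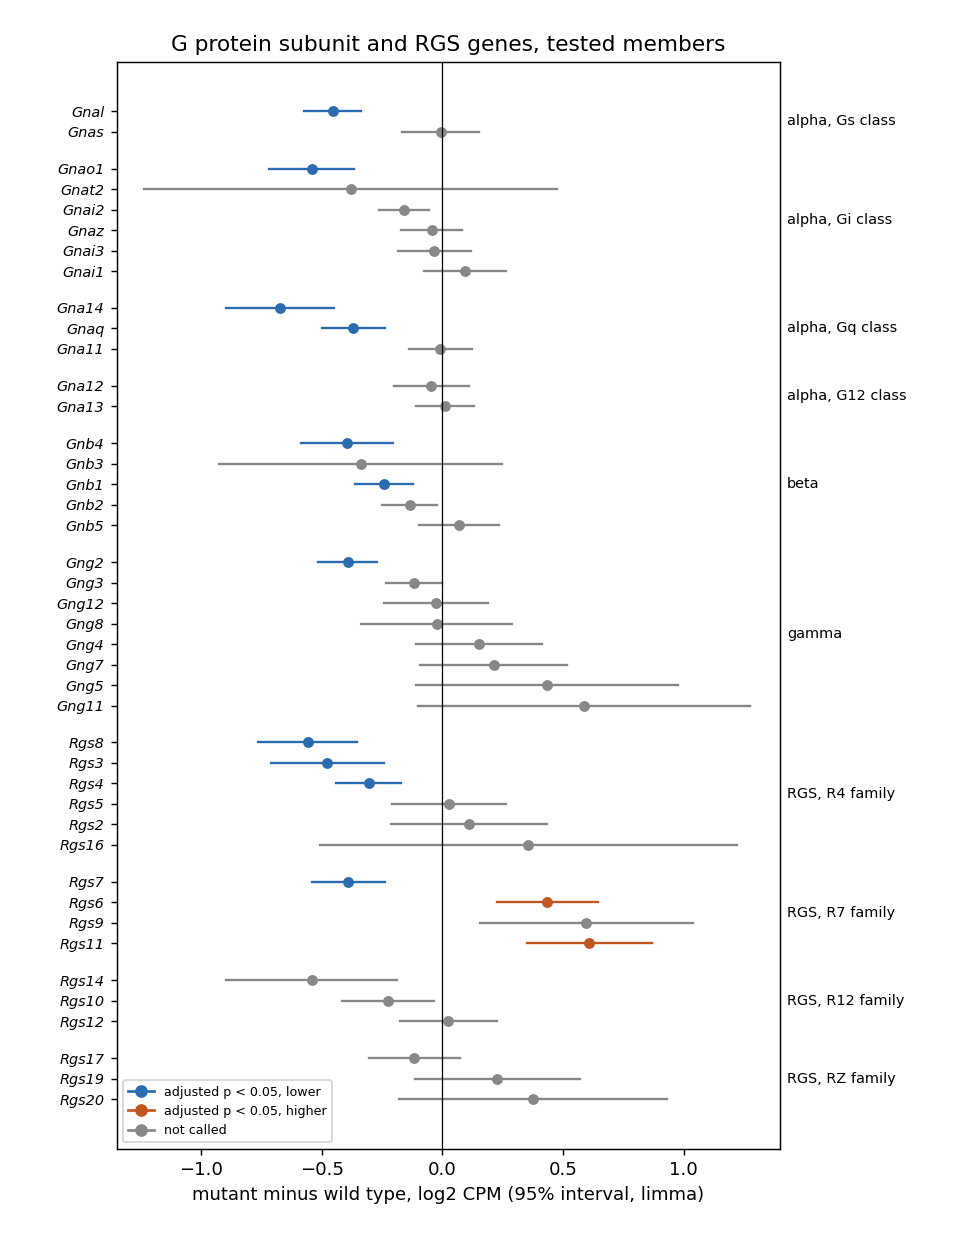
Mutant minus wild-type difference in log2 CPM of the 42 tested members, with its 95% interval from limma, grouped by subunit class and RGS family. The 11 blue points are called lower and the 2 orange points, Rgs6 and Rgs11, called higher, and the grey points are not called.

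The 3 members with the highest level per kilobase, Rgs4, Gnb1 and Gnao1, fell. Levels of different genes were compared as wild-type CPM per kilobase of the longest coding transcript, so levels and shares per kilobase depend on that length. On that scale Rgs4 stood highest at 449, followed by Gnb1 at 310, Gnao1 at 184, Gng3 at 154 and Gnal at 115. All 10 members at or above 60 CPM per kilobase had a difference below 0, and 6 of them were called lower. Of the 32 members under that level, 16 lay below 0 and 16 above, with 5 called lower and 2 called higher. The wild-type level enters both quantities, so this is a description. Abundant genes were called more often in the whole table too: among the 721 genes with a mean of at least 8 log2 CPM, 12.5% were called lower, and all 6 members in that range were. In the range from 6 to below 8 log2 CPM, 6.0% of 2699 genes and 3 of 15 members were called lower. From 4 to below 6, 5.64% of 4645 genes were called, and of 8 members 2 were called lower and 2 higher. Below 4, 2.5% of 6965 genes and 0 of 13 members were called. The median difference of all genes also fell with level, at 0.14, 0.06, 0.01 and -0.03 log2 units from the lowest range to the highest. The levels at which these ranges were drawn were chosen after the values were seen.

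**Figure D2:**
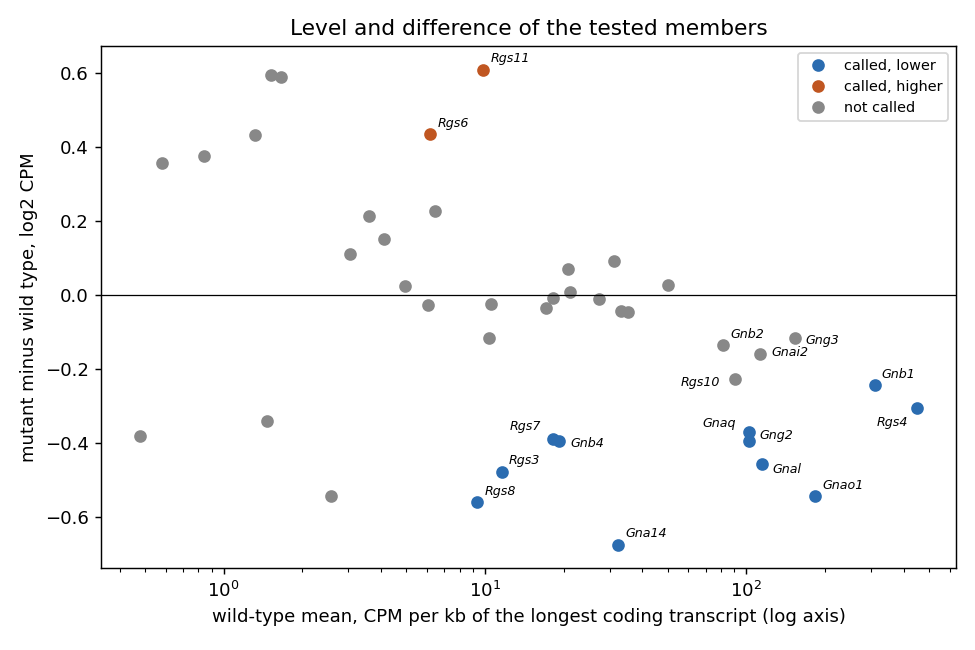
Difference in log2 CPM of each tested member (mutant minus wild type) against its wild-type mean level in CPM per kilobase on a log axis. The 10 members at 60 CPM per kilobase or more all lie below the line at 0, and the members under 3 lie on both sides of it.

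Markers of some neuron types moved along with the members. All 6 markers of NP1 neurons, the non-peptidergic nociceptors that carry Mrgprd, were called lower, and their summed level lay between 1280 and 1402 CPM in wild types and between 708 and 1025 in mutants. All 8 markers of the NP2 and NP3 itch neurons were called lower, with sums of 158 to 230 CPM among wild types and 56.5 to 64.7 among mutants. Of the 11 general markers of sensory neurons 2 were called lower, and their sum went from between 10640 and 11270 CPM to between 9774 and 10266. None of the 7 markers of large neurofilament neurons was called. Among other cells, 1 of 6 satellite glia markers, 2 of 8 Schwann cell markers, 1 of 8 tested macrophage markers and 1 of 5 fibroblast markers were called higher. Over all genes 2.81% were called higher and 2.64% lower. The median differences of these lists were 0.23, 0.24, 0.53 and 0.34 log2 units, beside 0.07 over all genes. Satellite glia sums were 856 to 1024 CPM in wild types and 959 to 1263 in mutants. Macrophage sums were 51.2 to 81.9 and 70.2 to 112 CPM. No marker in these lists was at 0 in all samples, and Cd3e and Cd8a of lymphocytes and Neurod2 of the central nervous system stayed at or under 3 reads. These lists were chosen with earlier results of these data known, so the counts are a description. The part of these markers in the members' differences was not tested. In whole ganglia, fewer cells of a type and less RNA per cell cannot be told apart.

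Summed over all 16 alpha subunits, the wild types lay close together, at 3292, 3294, 3302 and 3290 CPM, and the mutants apart, at 2599, 2707, 2729 and 2388 CPM. The means were 3295 ± 5.36 CPM for wild type and 2605 ± 156 for the mutant (SD, n = 4), which is 79.1%. Single members spread more than this sum, as Gnao1 with an SD of 29.0 CPM in wild types. The SD of 5.36 is therefore no measure of how alike the wild types were. Beta subunits summed to 1287 ± 36.1 and 1098 ± 59.4 CPM, gamma subunits to 709 ± 32.2 and 602 ± 20.8 CPM, and RGS genes to 1982 ± 102 and 1692 ± 94.4 CPM. In each of the 4 sums every mutant lay below every wild type. Such sums follow their most abundant members: Rgs4 alone held 1319 ± 57.3 CPM in wild types and 1068 ± 81.8 in mutants. Within the classes, the Gs, Gi, Gq and R4 sums also had every mutant below every wild type. The G12, R12 and RZ sums overlapped, and the R7 sum was higher in every mutant, at a mean of 119 beside 104 CPM.

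Of 13 tested alpha subunits, 4 fell and none rose. The Gs class, which stimulates adenylyl cyclase, has the members Gnas and Gnal. Gnal encodes G-olf, the form used in olfactory neurons and the striatum (ENSMUSG00000024524; chromosome 18, 67088216 to 67226792, plus strand; all places are from GENCODE M21 on GRCm38). Wild types 1, 3, 4 and 8 were at 9.29, 9.36, 9.37 and 9.42 log2 CPM and mutants 1 to 4 at 8.88, 8.94, 9.0 and 8.80, the order kept for all genes. All mutants were below all wild types. The level fell from 657 ± 24.2 to 479 ± 27.7 CPM (SD, n = 4), a difference of -0.46 log2 units (SE 0.0554; limma adjusted p = 0.000461). Gnas differed by -0.01 with a 95% interval from -0.17 to 0.15. Gnal made up 86.3 ± 1.09% of the class per kilobase in wild type and 82.2 ± 1.77% in the mutant. These shares depend on the transcript lengths used. Gnas was divided by 3947 bases and also has shorter transcripts, such as one of 2059 bases, so its share may be understated. The transcripts of Gnas share sequence with Nespas and Gm20721 on the other strand, and Gnal overlaps Mppe1 over 843 bases. Whether strand was used in counting is not given in the sources used here, so these levels are uncertain where the genes overlap.

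The Gi class holds the inhibitors of adenylyl cyclase and Gnao1, which encodes Go, a main alpha subunit of neurons that also releases the beta-gamma pairs acting on calcium channels. Gnao1 (ENSMUSG00000031748; chromosome 8, 93809966 to 93969388, plus strand) was at 10.04, 9.96, 10 and 9.95 log2 CPM in the wild types and at 9.51, 9.56, 9.58 and 9.13 in the mutants. The groups were apart, and mutant 4 was lower than the other mutants. The level fell from 1014 ± 29.0 to 701 ± 95.9 CPM, by 0.54 log2 units (SE 0.0831; limma adjusted p = 0.0021). Without mutant 4 the difference was -0.44 (adjusted p = 0.000243). An antisense gene, 4930488L21Rik, overlaps its exons. Gnai2, the Gi subunit of many tissues (ENSMUSG00000032562; chromosome 9, 107614125 to 107635367, minus strand), was at 7.96, 7.94, 7.96 and 8.03 in the wild types and at 7.86, 7.79, 7.80 and 7.79 in the mutants. Its groups did not overlap either, but the difference of -0.16 (SE 0.0494; limma adjusted p = 0.075) was not called as deposited. After median centring the adjusted p was 0.025, after TMM scaling 0.0317 and after removal of the GC trend 0.0258. Gnai1, Gnai3, Gnaz and the cone transducin gene Gnat2 differed by 0.09, -0.03, -0.04 and -0.38, and their groups overlapped. Per kilobase Gnao1 made up 48.5 ± 1.47% of the Gi class in wild type and 40.7 ± 3.79% in the mutant, and Gnai2 29.9 ± 0.570% and 32.7 ± 1.72%.

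The Gq class activates phospholipase C beta. Its members Gnaq and Gna14 both fell, and they are neighbours: 48.3 kilobases lie between them on chromosome 19, on the plus strand, with 0 RefSeq protein-coding genes in between. Gnaq (ENSMUSG00000024639; 16132831 to 16387463) was at 9.18, 9.24, 9.14 and 9.16 log2 CPM in the wild types and at 8.75, 8.87, 8.94 and 8.67 in the mutants. Its level fell from 579 ± 18.7 to 449 ± 37.3 CPM, by 0.37 log2 units (SE 0.0612; limma adjusted p = 0.00346). Gna14 (ENSMUSG00000024697; 16435762 to 16610820) was at 6.78, 6.73, 6.70 and 6.74 in the wild types and at 5.84, 6.24, 6.37 and 5.82 in the mutants. In both genes every mutant was below every wild type, and mutants 1 and 4 were the lowest. Gna14 had the largest fall of the tested members, from 107 ± 2.31 to 67.6 ± 13.1 CPM, 63.4% of the wild-type level, or -0.67 log2 units (SE 0.105; limma adjusted p = 0.00212). Gna11, the widely expressed Gq class member on chromosome 10, differed by -0.01 with an interval from -0.14 to 0.12. Per kilobase the share of Gna14 in the class went from 19.9 ± 0.646% to 16.0 ± 1.91%, that of Gna11 from 16.8 ± 0.853% to 21.4 ± 2.15%, and Gnaq held 63.1 ± 0.644% and 62.4 ± 0.352%.

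The sequences before the start sites of this pair are shown because these neighbours fell together. Each is the 250 bases before the RefSeq start (GRCm38.p6, plus strand), at chr19:16132434-16132683 for Gnaq and chr19:16435417-16435666 for Gna14, and capitals mark the motif matches described after them.
Gnaq: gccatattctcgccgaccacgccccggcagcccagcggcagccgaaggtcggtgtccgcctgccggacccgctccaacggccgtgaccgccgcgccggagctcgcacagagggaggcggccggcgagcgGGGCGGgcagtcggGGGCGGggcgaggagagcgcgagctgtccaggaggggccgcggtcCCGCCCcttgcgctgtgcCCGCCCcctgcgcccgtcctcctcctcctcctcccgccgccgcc
Gna14: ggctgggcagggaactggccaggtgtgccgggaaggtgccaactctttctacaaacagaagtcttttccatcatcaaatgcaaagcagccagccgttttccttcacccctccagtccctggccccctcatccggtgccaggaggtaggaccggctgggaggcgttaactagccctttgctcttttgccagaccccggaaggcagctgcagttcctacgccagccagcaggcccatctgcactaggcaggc
The Gnaq window had 79.2% G and C, 37 CpG dinucleotides and 4 matches to the GC box (GGGCGG, or CCGCCC on the other strand), a motif found in 32.7% of the 32851 mouse promoter windows of this length. The Gna14 window had 60% G and C, 7 CpG dinucleotides and none of the searched motifs, beside medians of 52.4% and 6 over all windows. The other motifs searched on both strands, none of which contains another, were CCAAT (in 33.8% of windows), TATAAA (12.4%), the cAMP response element TGACGTCA (1.55%), the E-box CACGTG (6.02%) and the RUNX core TGTGGT (14.0%). A match is a run of letters and says nothing of a factor bound there.

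Neither member of the G12 class was called. Gna13, the one with more reads, was at 7.10, 7.02, 7.01 and 6.95 log2 CPM in the wild types and at 7.04, 7.09, 6.96 and 7.03 in the mutants. The groups overlapped over nearly their whole range, and the difference of 0.01 had an interval from -0.11 to 0.13, with its sign below 0 under 7 of the 22 alternatives run. Gna12 differed by -0.05.

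Of the 5 beta subunits, Gnb1 and Gnb4 fell. Gnb1, the most abundant beta subunit here (ENSMUSG00000029064; chromosome 4, 155491361 to 155559269, plus strand), was at 9.97, 9.92, 9.96 and 9.86 log2 CPM in the wild types and at 9.72, 9.76, 9.69 and 9.56 in the mutants. The groups were apart by a narrow gap between wild type 8 and mutant 2. Expression fell from 974 ± 33.7 to 823 ± 47.0 CPM, by 0.24 log2 units (SE 0.0557; limma adjusted p = 0.0203). The call was lost under quantile normalization (adjusted p = 0.0907) and without wild type 1 (0.0766). Gnb4 (ENSMUSG00000027669; chromosome 3, 32580332 to 32616585, minus strand) was at 6.87, 6.83, 6.88 and 6.83 in the wild types and at 6.36, 6.54, 6.72 and 6.20 in the mutants. The wild types lay close together and the mutants spread widely, with mutant 3 nearest to the wild types. Its level fell from 115 ± 2.17 to 88.3 ± 13.7 CPM, by 0.40 log2 units (SE 0.0889; limma adjusted p = 0.0187), and the call was lost without wild type 1 (adjusted p = 0.0582) and without mutant 1 (0.0615). Gnb2 (ENSMUSG00000029713; chromosome 5, 137528127 to 137533510, minus strand), which overlaps Epo on the same strand, was at 7.28, 7.22, 7.25 and 7.24 in the wild types and at 7.06, 7.18, 7.14 and 7.07 in the mutants. Its groups did not overlap, and the difference of -0.14 was not called (limma adjusted p = 0.156; 0.0455 after median centring and 0.0478 after removal of the GC trend). Gnb3, of photoreceptors, and Gnb5, the partner of the R7 RGS proteins, differed by -0.34 and 0.07 with overlapping groups.

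Among 8 tested gamma subunits, which anchor the beta-gamma pair in the membrane, 1 fell. Gng2 (ENSMUSG00000043004; chromosome 14, 19872559 to 19977627, minus strand) was at 8.54, 8.64, 8.59 and 8.67 log2 CPM in the wild types and at 8.20, 8.30, 8.28 and 8.10 in the mutants. Every mutant was below every wild type. Gng2 fell from 391 ± 16.0 to 298 ± 18.2 CPM, by 0.39 log2 units (SE 0.0571; limma adjusted p = 0.00157). Gng3, a neuronal gamma subunit with more RNA per kilobase, differed by -0.12 (limma adjusted p = 0.224), and its 95% interval, from -0.23, ended just below 0. Per kilobase Gng3 made up 54.2 ± 0.528% of the gamma subunits in wild type and 56.6 ± 0.648% in the mutant, and Gng2 36.0 ± 0.861% and 31.1 ± 1.32%. Gng3 shares 402 bases with Bscl2 on the other strand, and Gng2 shares 897 bases with the non-coding Gm48283. The remaining 6, Gng4, Gng5, Gng7, Gng8, Gng11 and Gng12, differed by -0.03 to 0.59 with overlapping groups. Gng5 had 11 to 36 reads per library. It shares 473 bases at 96.2% identity with AC170998.1, a gene elsewhere that is not among the deposited ones, so its level is uncertain.

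**Figure D3:**
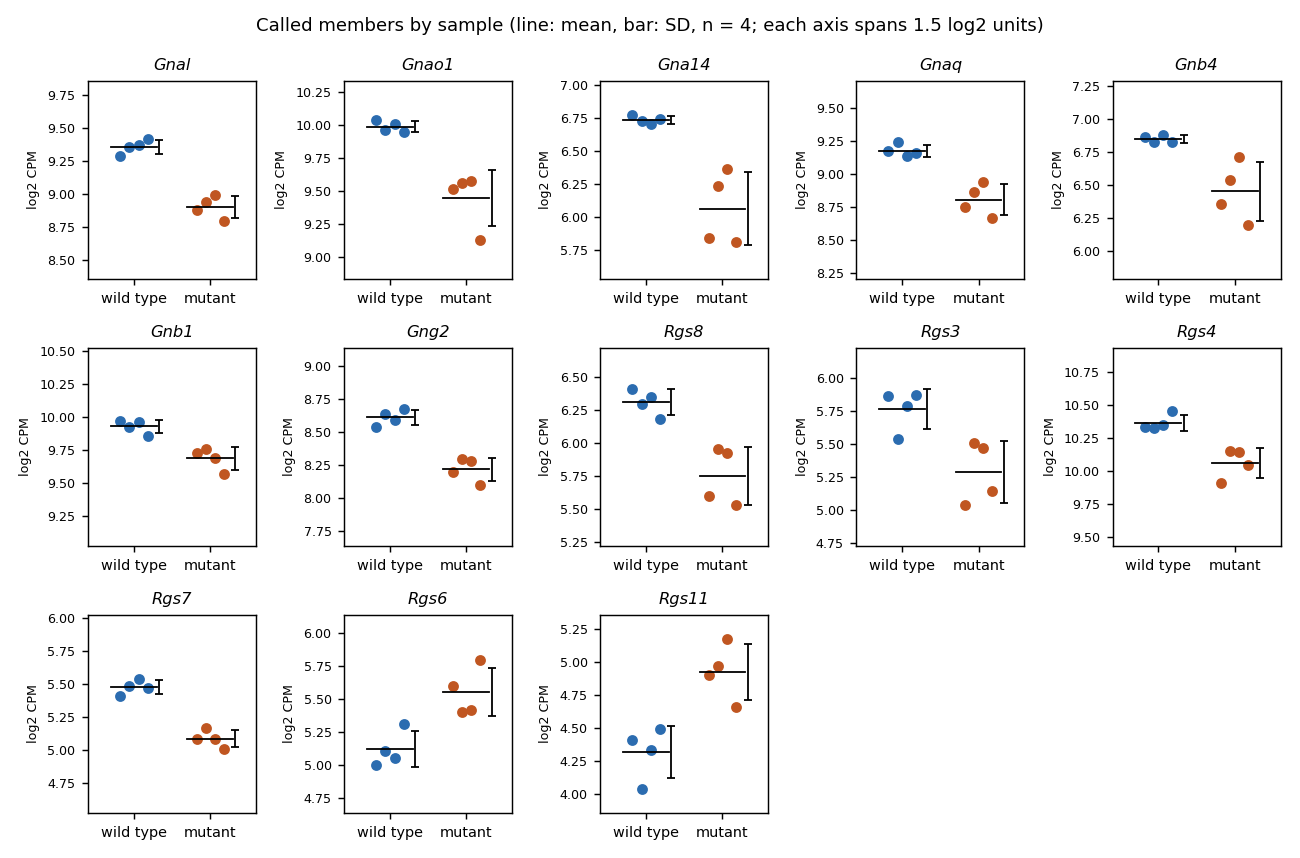
Log2 CPM of the 13 called members in each of the 4 wild-type (blue) and 4 mutant (orange) samples, with the mean (line) and SD (bar). Every panel spans the same number of log2 units, and in each panel the 2 groups do not overlap.

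The R4 family of RGS proteins is made of short proteins that act on Gi and Gq class alpha subunits, and 3 of its 6 tested members fell. Rgs4 (ENSMUSG00000038530; chromosome 1, 169741477 to 169747642, minus strand) had the most RNA of all members. It was at 10.33, 10.32, 10.35 and 10.46 log2 CPM in the wild types and at 9.91, 10.15, 10.14 and 10.04 in the mutants. The groups were apart, with mutant 1 lowest and wild type 8 highest. Its level fell from 1319 ± 57.3 to 1068 ± 81.8 CPM, by 0.31 log2 units (SE 0.0623; limma adjusted p = 0.0115). Rgs8 (ENSMUSG00000042671; chromosome 1, 153653025 to 153700323, plus strand) was at 6.41, 6.30, 6.35 and 6.18 in the wild types and at 5.60, 5.96, 5.93 and 5.53 in the mutants. All mutants were below all wild types, and mutants 1 and 4 were the lowest. The level fell from 79.2 ± 5.37 to 54.1 ± 8.23 CPM, by 0.56 log2 units (SE 0.0962; limma adjusted p = 0.0044). Rgs3 (ENSMUSG00000059810; chromosome 4, 62559847 to 62704001, plus strand) was at 5.86, 5.54, 5.79 and 5.87 in the wild types and at 5.04, 5.51, 5.47 and 5.14 in the mutants. Wild type 3 and mutant 2 nearly met. Rgs3 fell from 54.4 ± 5.58 to 39.2 ± 6.37 CPM, by 0.48 log2 units (SE 0.11; limma adjusted p = 0.0211). This call was lost without wild type 1 (adjusted p = 0.0734), wild type 8 (0.0564), mutant 1 (0.0645) or mutant 4 (0.0581). Reads of Rgs3 can be shared with the pseudogene Gm5763, which is 99.8% identical over 1410 bases and held a mean of 8.13 reads beside 325 for Rgs3. Rgs2, Rgs5 and Rgs16 differed by 0.11, 0.03 and 0.36 with overlapping groups.

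Rgs4 and Rgs5 are neighbours too, 45.7 kilobases apart on chromosome 1 with 0 RefSeq protein-coding genes between them, and so are Rgs8, which fell, and Rgs16, which was not called, 40.0 kilobases apart on the same chromosome with 0 between. Rgs5, best known from pericytes, was at 7.58, 7.59, 7.44 and 8.04 log2 CPM in the wild types and at 7.65, 7.49, 7.71 and 7.91 in the mutants, an overlap over most of the range. Its difference had an interval from -0.21 to 0.27, and the difference between the changes of Rgs4 and Rgs5 was not tested. None of the 7 markers of pericytes and vascular smooth muscle was called, and their sum lay between 108 and 161 CPM in wild types and between 124 and 148 in mutants. The 250 bases before the start of each are shown as a pair of neighbours of which 1 fell, from chr1:169747643-169747892 on the minus strand for Rgs4 and chr1:169655251-169655500 on the plus strand for Rgs5 (RefSeq, GRCm38.p6), with motif matches in capitals.
Rgs4: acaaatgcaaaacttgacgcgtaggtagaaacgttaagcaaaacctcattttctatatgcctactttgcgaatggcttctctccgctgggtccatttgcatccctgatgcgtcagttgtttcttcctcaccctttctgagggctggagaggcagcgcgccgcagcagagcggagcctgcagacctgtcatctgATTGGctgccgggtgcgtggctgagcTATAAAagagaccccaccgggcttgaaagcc
Rgs5: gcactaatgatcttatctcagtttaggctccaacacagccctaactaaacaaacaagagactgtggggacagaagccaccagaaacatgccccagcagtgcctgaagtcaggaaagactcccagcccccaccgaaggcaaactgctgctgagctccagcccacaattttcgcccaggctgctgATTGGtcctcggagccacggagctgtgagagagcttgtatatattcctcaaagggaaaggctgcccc
Both windows had 53.6% G and C, with 13 CpG dinucleotides in Rgs4 and 4 in Rgs5. Each held 1 CCAAT match, on the other strand as ATTGG, and Rgs4 also held 1 TATAAA. These 4 sequences were chosen after the expression values were seen.

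The R7 family moved in both directions. Its proteins form a stable pair with Gnb5 in place of a gamma subunit, and are brought to the membrane by partners such as Rgs7bp and Gpr158. Rgs7 (ENSMUSG00000026527; chromosome 1, 175059087 to 175492500, minus strand) was at 5.42, 5.49, 5.54 and 5.48 log2 CPM in the wild types and at 5.08, 5.17, 5.09 and 5.01 in the mutants. Both groups were tight and apart. Rgs7 fell from 44.4 ± 1.57 to 33.8 ± 1.52 CPM, by 0.39 log2 units (SE 0.0715; limma adjusted p = 0.00616).

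Rgs11 rose (ENSMUSG00000024186; chromosome 17, 26202951 to 26211324, plus strand). It was at 4.41, 4.04, 4.33 and 4.49 log2 CPM in the wild types and at 4.90, 4.97, 5.18 and 4.66 in the mutants. Every mutant was above every wild type, with mutant 3 the highest. The level rose from 19.8 ± 2.61 to 30.4 ± 4.47 CPM, 153% of wild type, or 0.61 log2 units (SE 0.122; limma adjusted p = 0.0107). Its exons overlap Arhgdig on the other strand. Rgs6 (ENSMUSG00000021219; chromosome 12, 82588292 to 83162056, plus strand) was at 5.0, 5.10, 5.05 and 5.31 in the wild types and at 5.60, 5.40, 5.41 and 5.79 in the mutants. Wild type 8 came close to mutants 2 and 3 without crossing them. The level rose from 34.5 ± 3.38 to 46.9 ± 6.12 CPM, by 0.43 log2 units (SE 0.0981; limma adjusted p = 0.0192), and the call was lost without wild type 1 (adjusted p = 0.0681), wild type 3 (0.0512), mutant 1 (0.0582) or mutant 4 (0.0515). Rgs9, with 26 to 67 reads per library, differed by 0.60 with an interval from 0.15 to 1.04, and with overlapping groups was not called (limma adjusted p = 0.11).

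Within each sample the shares of these genes, taken as family CPM per kilobase, differed between the genotypes. Rgs7 held 49.2, 53.9, 52.1 and 48.8% in wild types 1, 3, 4 and 8 and 35.0, 36.8, 33.7 and 34.4% in mutants 1 to 4. Rgs11 held 29.5, 23.7, 27.1 and 29.7% in those wild types, beside 37.3, 38.7, 43.5 and 32.6% in those mutants. So per kilobase Rgs11 stood below Rgs7 in all wild types and in mutant 4, and above it in mutants 1, 2 and 3. Rgs6 stayed below Rgs7 per kilobase in all 8 samples. Its shares were 17.3 ± 1.42% for wild type and 21.2 ± 3.38% for mutant ganglia (SD, n = 4), and Rgs9 held 4.25 ± 1.19% and 5.79 ± 1.19%. The order of the genes depends on the transcript lengths used. In log2 CPM, Rgs11 minus Rgs7 was -0.18, -0.20, 0.09 and -0.35 in mutants 1 to 4 and below 0 in all wild types. Rgs6 minus Rgs7 was 0.51, 0.23, 0.33 and 0.78 in those mutants and below 0 in all wild types. A ratio of this kind shows unequal change, not which gene moved. The family's summed level was 104 ± 4.0 CPM in wild types and 119 ± 2.10 in mutants, while Gnb5 lay at 5.48, 5.50, 5.35 and 5.53 log2 CPM in the wild types and at 5.39, 5.54, 5.67 and 5.54 in the mutants (difference 0.07, interval from -0.10 to 0.23). Rgs7bp, at a mean of 9.51 and 9.38, was not called (limma adjusted p = 0.213).

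**Figure D4:**
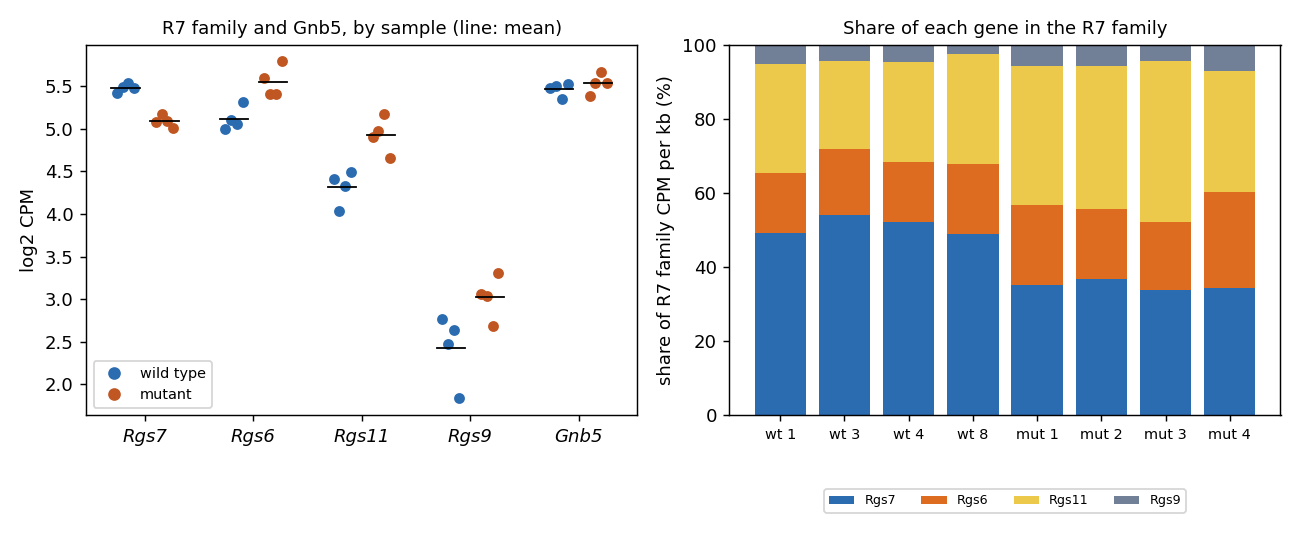
Left, log2 CPM of the R7 genes and Gnb5 in each sample, with group means as lines. Right, the share of each R7 gene in the family's CPM per kilobase by sample, where Rgs7 holds 51.0% on average in the wild types and 35.0% in the mutants.

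The R12 family held no call. Rgs10, a small RGS protein that acts on Gi class subunits, was at 6.32, 6.45, 6.18 and 6.29 log2 CPM in the wild types and at 6.13, 6.32, 5.87 and 6.03 in the mutants. The groups overlapped through mutant 2, and the difference was -0.23 (interval from -0.42 to -0.04; limma adjusted p = 0.154). Rgs14 (ENSMUSG00000052087; chromosome 13, 55369732 to 55384687, plus strand), a scaffold that also binds small GTPases, was at 2.77, 2.63, 2.83 and 2.42 in the wild types and at 2.16, 2.22, 1.94 and 2.15 in the mutants. All mutants were below all wild types, at 66.9% of the wild-type CPM, and the difference of -0.54 (SE 0.166; limma adjusted p = 0.0727) was not called as deposited. Its adjusted p was between 0.0274 and 0.0445 under median centring, quantile normalization, TMM scaling and removal of the GC trend. Rgs12 differed by 0.02.

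No member of the RZ family was called. Rgs17, which acts on Gi and Gz subunits, was at 6.20, 6.43, 6.35 and 6.62 in the wild types and at 6.17, 6.23, 6.46 and 6.27 in the mutants, with overlapping groups and a difference of -0.12 (interval from -0.31 to 0.07). Rgs19 and Rgs20 differed by 0.23 and 0.38.

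The 12 untested members had few reads. Gnat3, the taste alpha subunit, had 0 reads in every sample, which allows up to 0.376 to 0.485 CPM (3 reads, counting error only). Rgs1, Rgs13, Rgs18, Rgs21, Rgs22, Gnat1, Gna15, Gng10, Gng13, Gngt1 and Gngt2 had at most 9 reads in any library. They include some transducin subunits of the retina (Gnat1, Gngt1 and Gngt2) and RGS genes of blood cells. Gng10 shares 958 bases at 99.8% identity with Gm20503 on the same strand, which held a mean of 0 reads. How shared reads were counted is not given, so the level of Gng10 is uncertain.

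The 4 mutants did not move equally. Over the 11 members that fell, the mean distance from the wild-type mean was -0.52, -0.33, -0.31 and -0.60 log2 units in mutants 1 to 4. Mutant 4 was the farthest from the wild types for 9 of the 11 genes and mutant 1 for the other 2 (Rgs3 and Rgs4). Mutant 2 was the nearest for 6 and mutant 3 for 5. The summed NP1 markers were 766, 935, 1025 and 708 CPM in the same mutants, so mutants 4 and 1 were also the lowest there. This order was not particular to NP1 neurons. They were also lowest in NP2 and NP3 neurons (56.9, 62.3, 64.7 and 56.5 CPM). General sensory neuron sums were 9774, 10266, 10038 and 9904 CPM. Mutants 1 and 4 were highest in large neurofilament neurons (10337, 9324, 9007 and 10162 CPM). Satellite glia sums were 1238, 1177, 959 and 1263 CPM. Endothelial sums, at 104, 87.5, 67.6 and 87.4 CPM, did not follow this order. Muscle markers summed to 155 CPM in mutant 4 and to at most 44.8 in the other 7 samples. Without mutant 4 the members' calls were 1 higher and 10 lower, with Rgs6 and Rgs3 lost. For the genes that rose the order differed: mutant 3 was highest for Rgs11 and mutant 4 for Rgs6.

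**Figure D5:**
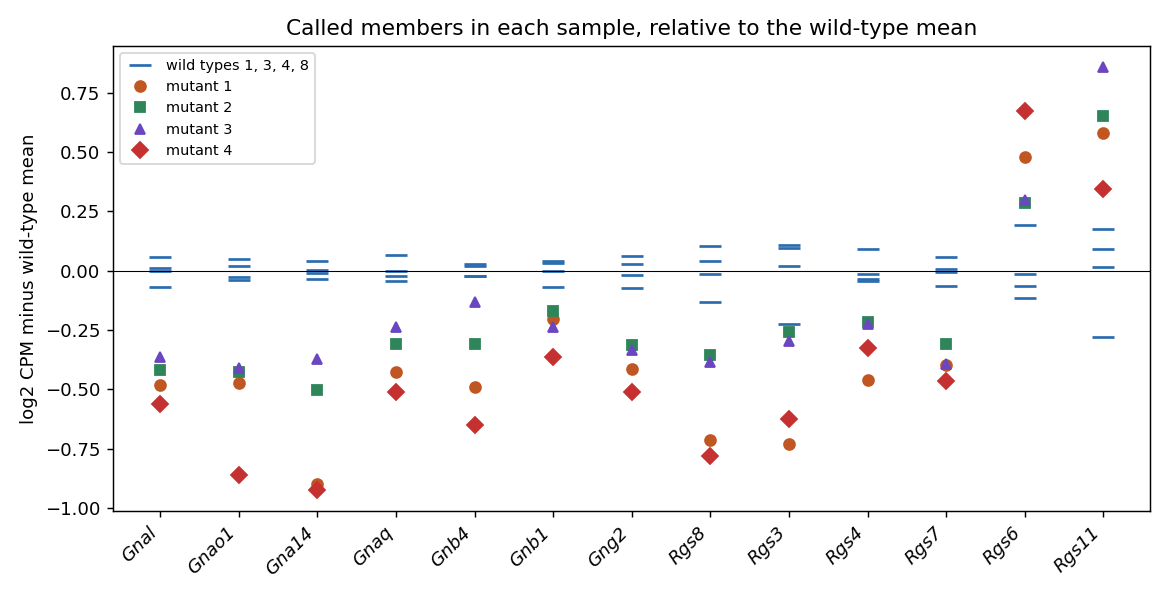
Log2 CPM of the 13 called members in each sample minus the wild-type mean of that gene. Blue dashes are the 4 wild types and the other symbols the mutants, of which mutant 4 (red diamonds) lies lowest for 9 of the 11 genes that fell and mutant 1 (orange circles) for the other 2.

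Genes that act beside G proteins and RGS proteins were followed on a list of 58, of which 52 were tested. Of these, 2 rose and 3 fell, 9.62% in all, beside 5.46% of all genes. The balance of directions depended on scaling: 1 rose and 8 fell after median centring or removal of the GC trend, 1 and 7 after TMM scaling, and 2 and 6 after quantile normalization. Among 21 effectors, Plcb3 and Prex1 fell and Prex2 rose. Plcb3, a phospholipase C activated by Gq and by beta-gamma, was at 9.62, 9.53, 9.69 and 9.68 log2 CPM in the wild types and at 8.98, 9.17, 9.17 and 8.77 in the mutants. The groups were far apart, and the level fell to 66.0% of wild type, by 0.61 log2 units (SE 0.08; limma adjusted p = 0.000917). Prex1 and Prex2 are Rac exchange factors activated by beta-gamma and a membrane lipid. Prex1 lay at 6.09 to 6.38 in wild types and at 5.53 to 5.89 in mutants and fell by 0.47 (SE 0.0899; limma adjusted p = 0.00832). Prex2 lay at 5.35 to 5.51 in wild types and at 5.68 to 6.03 in mutants and rose by 0.41 (SE 0.0824; limma adjusted p = 0.0106).

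Adrbk1, the table's symbol for the receptor kinase GRK2, which also binds active Gq, was the call among 7 tested receptor kinases and arrestins. It lay at 8.30 to 8.48 in wild types and at 7.92 to 8.17 in mutants and fell by 0.31 (SE 0.0667; limma adjusted p = 0.0144), and the call was lost without wild type 1 (adjusted p = 0.0569) or mutant 1 (0.0505). Gpr158, a receptor that holds Rgs7 at the membrane, rose by 0.26 (SE 0.0610; limma adjusted p = 0.0246), with 7.96 to 8.18 among wild types and 8.23 to 8.38 among mutants. Its call held in 13 of 22 alternatives, and its adjusted p was 0.197 after median centring and 0.102 after TMM scaling. The other 13 tested chaperones, exchange modulators and RGS partners and the 10 proteins with an RGS homology domain outside the Rgs symbols gave no call.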

How the data were processed

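Total RNA of 8 ganglion samples was read as single-end Illumina libraries, per the labels' protocols. Per its name and values, the file the authors deposited holds moderated log2 CPM per gene, with 41422 lines for 40800 identifiers (402 repeated with equal values, used once). Per the submitters' processing notes, Salmon 0.11.1, DESeq2 and the build mm9 were used, with roles not given. The deposited GC percent per gene served only in 1 alternative. Subtracting the shared floor of -1.79 log2 CPM made 100.0% of values whole multiples of 1 read (tolerance 0.1 read), which gave reads and library totals. Reads are not independent molecules, so floors of 3 reads cover counting error only.

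The difference, mutant minus wild type, came from limma 3.58.1 under R 4.3.3, by lmFit and eBayes with trend = TRUE (two-sided, no covariates). Because of the prior count, differences of genes with few reads come out too small. Exact two-sided permutation over all 70 assignments gave 0.0286, its smallest possible p, for each of the 13 called members. Members and lists were chosen with earlier results of these data known. Values in every sample are given for called members, for the 3 uncalled members with the largest difference and non-overlapping groups, and for the member with the most reads in each class; pathway genes are named where called. Gene places come from GENCODE M21 (GRCm38), which held all 54 members and is not the authors' build, promoters from the RefSeq table (40 of 54 members), and similarity from blastn 2.17.0. On simulated reads with 14994 genes tested, 94 of 100 changes of 1 log2 unit and 25 of 100 of 0.5 were called, with 5 unchanged genes called. Samples of 1 group differed by more than sampling noise (chi-square per degree of freedom 2.59 to 6.86 over 12652 genes). Alternatives covered the added constant, the filter, scaling, GC trend, variance model, weights, voom, Xist as a covariate, left-out samples, a replicate block and the threshold. Python 3.11.15, numpy 2.4.6, pandas 2.3.3, scipy 1.17.1 and matplotlib 3.10.9 were used.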

Additional observations from a re-analysis of the deposited data

Results flagged for a closer look

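A sample far from the others of its group was seen in 4 of the 76 groups of 4 values examined, where chance gives about 1 in 20, or 3.8. Gnao1 was at 9.13 log2 CPM in mutant 4 and at 9.51 to 9.58 in the other mutants. Gnai2 was at 8.03 in wild type 8 against 7.94 to 7.96 in the other wild types, and at 7.86 in mutant 1 against 7.79 to 7.80 in the other mutants. The markers of pericytes and vascular smooth muscle summed to 124 CPM in mutant 2 and to 146 to 148 CPM in the other mutants.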

How the results depend on the processing

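No called member changed sign under the 22 alternatives run. Gnal, Gng2 and Rgs7 were called in each of them, and 9 of the 13 in each but the fit without a variance trend, which left 0 members higher and 3 lower, and 0 pathway genes higher and 1 lower. Leaving out 1 sample at a time gave 1 to 2 members higher and 8 to 11 lower, and 1 to 4 pathway genes higher and 2 to 4 lower. Pathway genes called higher were 1 under median centring, TMM scaling and GC trend removal and 4 at an adjusted p under 0.1. Those called lower were 8 under centring and GC trend removal, 7 under TMM scaling, 6 under quantile normalization and 5 at an adjusted p under 0.1. The cause was not tested. With Xist as a covariate the same 2 and 11 members were called. Over all genes the split was 236 higher and 586 lower under TMM scaling, 271 and 422 under quantile normalization, 221 and 722 after GC trend removal and 67 and 75 without the trend. The edgeR and DESeq2 fits that were planned were not run, since the deposited unit is log2. Over the 22 alternatives the limma adjusted p ranged from 0.00529 to 0.122 for Rgs3, 0.0122 to 0.107 for Rgs6, 0.0107 to 0.122 for Gnb1, 0.00221 to 0.125 for Gnb4, 0.0274 to 0.179 for Rgs14, 0.025 to 0.295 for Gnai2, 0.0455 to 0.319 for Gnb2, 0.0039 to 0.116 for Adrbk1 and 0.0158 to 0.212 for Gpr158.

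The replicate numbers 1, 3 and 4 occur in both groups. Samples of 1 number correlated at 0.081, 0.041 and 0.058 in their deviations from the group means. Samples of different numbers were not compared, so these values do not settle whether the numbers pair the samples. With the replicate block over these 6 samples 2 members were higher and 11 lower, and without it 2 and 10, where Gnb4 was lost (limma adjusted p = 0.0568). Pathway genes stood at 2 higher and 3 lower with the block. In simulated data 25 of 100 changes of 0.5 log2 units were called among 14994 genes, so a missing call alone says little about a change of that size. The simulation gave every gene the same relative spread between samples, so its rate does not hold for each member. For a given member the interval is the guide, as for Gna13, from -0.11 to 0.13. Members with few reads had wide intervals, as for Gnat2, from -1.24 to 0.47.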
